A study of Mus musculus with 8 samples.

Results

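Tissue factor pathway inhibitor 2 (Tfpi2), its relative Tfpi, the plasminogen activators Plau and Plat, the urokinase receptor Plaur, the serpins Serpine2 and Serpinf1, tissue factor (F3) and thrombomodulin (Thbd) were described over 8 arrays of mouse adult fibroblasts (MAFs). The 9 genes were listed for a part in clotting or pericellular proteolysis, or, as with Serpinf1, as members of the serpin family. Tfpi2 itself was chosen by its low signal in Cre Recurred cells. By the array annotation 8 of the 9 genes had a probe set under their symbol, 14 probe sets in all, out of 18193 genes and 45037 probe sets tested. Serpine2, the serpin also called protease nexin, was not listed under that symbol and has no value here. Since the low signal of Tfpi2 in Cre Recurred cells chose it, its differences that involve these cells are given as a description, without a test.

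The study compared fibroblast populations with and without the retinoblastoma protein RB before and after cisplatin (CDDP), a drug that crosslinks DNA. All 4 populations came from peritoneal fascia of mice with a floxed Rb gene, and all carried p53DD, a dominant negative fragment of p53 delivered by a retrovirus and selected as a pool. Cre Recurred cells had lost Rb to adenoviral Cre, had been exposed to CDDP for 24 h and had grown out again in medium without the drug. Cre Naïve cells had lost Rb in the same way and were untreated. GFP Recurred cells had received an adenovirus with GFP alone, kept Rb and had grown out after CDDP for 24 h, and GFP Naïve cells kept Rb and were untreated. Each population was measured on 2 arrays labelled as biological replicates, so p-values measure the spread between these samples. In cultures measured as bulk RNA, fewer cells that express a gene and less RNA per cell cannot be told apart.

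Plasminogen is cut to plasmin, a protease that dissolves fibrin and matrix proteins, by tissue-type (Plat) and urokinase-type (Plau) activators, and Plaur holds urokinase at the cell surface. Tissue factor starts clotting with factor VII, Tfpi blocks that complex, and thrombomodulin turns thrombin towards the activation of protein C. Tfpi2 is a secreted Kunitz-type inhibitor that is laid down in the matrix and blocks plasmin and trypsin, and in human tumours its gene is known for loss of expression with promoter methylation.

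The stretches before the start sites of Tfpi2 and of members that were lower in Cre Recurred than in GFP Recurred cells are shown because CpG content is the sequence feature on which DNA methylation acts. They are the 250 bases before a start site in RefSeq (GRCm38.p6), written 5′ to 3′ in the direction of transcription with each CpG in capitals. Windows were given for 6 of the 9 genes, 9 windows in all, of which 4 are printed. Plat, also lower there, has no window in the table and is not shown.
Tfpi2, chr6:3968376-3968625, minus strand: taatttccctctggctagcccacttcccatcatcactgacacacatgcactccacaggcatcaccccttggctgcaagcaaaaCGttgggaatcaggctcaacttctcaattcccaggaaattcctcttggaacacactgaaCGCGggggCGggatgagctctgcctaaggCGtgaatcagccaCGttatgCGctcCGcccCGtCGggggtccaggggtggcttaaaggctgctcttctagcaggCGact
Tfpi2, chr6:3988859-3989108, minus strand: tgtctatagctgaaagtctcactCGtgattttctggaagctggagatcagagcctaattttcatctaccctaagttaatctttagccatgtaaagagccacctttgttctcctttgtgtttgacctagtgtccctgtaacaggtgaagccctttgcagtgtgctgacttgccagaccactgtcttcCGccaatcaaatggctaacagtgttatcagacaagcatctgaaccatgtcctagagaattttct
Serpinf1, chr11:75422624-75422873, minus strand: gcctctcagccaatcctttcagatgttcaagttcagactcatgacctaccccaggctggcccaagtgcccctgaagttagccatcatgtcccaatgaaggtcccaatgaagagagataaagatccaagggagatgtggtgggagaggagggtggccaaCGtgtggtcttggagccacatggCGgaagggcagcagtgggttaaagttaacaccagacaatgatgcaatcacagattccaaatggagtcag
F3, chr3:121723287-121723536, plus strand: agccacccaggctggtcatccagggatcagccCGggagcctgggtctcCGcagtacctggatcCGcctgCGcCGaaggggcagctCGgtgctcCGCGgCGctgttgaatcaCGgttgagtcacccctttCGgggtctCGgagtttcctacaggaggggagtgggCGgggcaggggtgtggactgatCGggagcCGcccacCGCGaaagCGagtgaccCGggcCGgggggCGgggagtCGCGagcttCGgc

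Tfpi2 lies on the minus strand at chr6:3962589-3988978. Its inner window held 11 CpG, more than 64.4% of all 32851 windows of this length, whose median was 6. The outer window printed held 2 CpG, and the last Tfpi2 window, which overlaps it, held 1. The Serpinf1 window held 2 CpG and the F3 window 24, which 88% of windows did not reach. Of the other members' windows, not printed, those of Tfpi held 3 CpG each, that of Plaur 6 and that of Serpine2 34. At least 1 CpG stood in 92.1% of all windows. Searched on both strands, the GC box letters GGGCGG, which contain a CpG, occurred 2 times in the inner Tfpi2 window and 3 times in that of F3, and in 32.7% of all windows. The AP-1 letters TGACTCA, whose reverse complement is TGAGTCA, occurred 1 time before F3 and in 4.46% of all windows, and not in the Tfpi2 or Serpinf1 windows. The E2F letters TTTCGCGC or TTTGGCGC, which also contain a CpG, were in 0.654% of all windows and the TATA box letters TATAAA in 12.4%, and neither was in the 4 windows printed. These matches describe letters only, and methylation was not measured on these arrays.

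The deposited values are log2 signals, and each unit is a doubling of signal. Array medians ran from 5.37 to 5.41. Rb1, the deleted gene, read 4.98 and 5.45 in Cre Recurred cells and 6.21 and 5.72 in Cre Naïve cells, against 8.21 and 8.78 in GFP Recurred cells and 7.98 and 8.07 in GFP Naïve cells, so both Cre populations lay below both GFP populations. On 5 of the 8 arrays the highest correlation across probe sets was with an array of another population. Cre Recurred 2 and Cre Naïve 2 were nearest to each other (r = 0.9917), as were Cre Naïve 1 and GFP Naïve 1 (r = 0.9941), and GFP Naïve 2 was nearest to GFP Recurred 1 (r = 0.9905). In every comparison the members' calls that changed when 1 array was left out are therefore given. Differences were fitted with limma with 1 mean per population and passed at 1.5-fold and a Benjamini-Hochberg adjusted p under 0.25 over all probe sets, the thresholds in the study's methods. With 2 arrays in each population, 0.333 is the smallest two-sided p of an exact permutation test. Fibroblast markers, a list of 16 genes, had a median log2 signal of 10.69 and 11.78 in Cre Recurred cells, 12.08 and 11.92 in Cre Naïve cells, 12.09 and 12.56 in GFP Recurred cells and 12.16 and 11.66 in GFP Naïve cells. Between Cre Recurred and GFP Recurred cells 1 of these 16 was higher and 4 lower past the thresholds, beside 4.08% of all probe sets higher and 4.78% lower. Mesothelial markers, a list of 10 genes, had medians of 4.47 and 5.06 in Cre Recurred cells, 4.50 and 4.54 in Cre Naïve cells, 4.54 and 4.46 in GFP Recurred cells and 4.63 and 4.37 in GFP Naïve cells. Of these 3 were higher and 0 lower in Cre Recurred than in GFP Recurred cells. Compared with Cre Naïve cells, 2 mesothelial markers were higher and 0 lower, beside 1.16% of all probe sets in either direction. Fibroblast markers had 0 higher and 1 lower in that comparison. Smooth muscle markers (8 genes, array medians from 7.95 to 8.75) had 2 higher and 2 lower between Cre Recurred and GFP Recurred cells. Endothelial markers (12 genes, array medians from 4.22 to 4.46) and macrophage markers (12 genes, from 3.76 to 4.15) had none past the thresholds there by limma on their brightest probe sets. The part of these markers in the members' differences was not tested.

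Tfpi2 had a low, even signal on both Cre Recurred arrays and was several log2 units higher in every other population. Its probe set 1418547_at read 3.90 and 3.90 in Cre Recurred cells, 8.03 and 7.15 in Cre Naïve cells, 8.65 and 9.04 in GFP Recurred cells and 8.24 and 9.10 in GFP Naïve cells. The Cre Recurred arrays lay below all others with no overlap, and of the 6 remaining arrays the Cre Naïve pair was lowest. By population the means were 3.90 ± 0.00057 in Cre Recurred, 7.59 ± 0.62 in Cre Naïve, 8.85 ± 0.28 in GFP Recurred and 8.67 ± 0.61 in GFP Naïve cells (SD, n = 2 each).

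As a description, the log2 difference of Tfpi2 was -3.68 between Cre Recurred and Cre Naïve cells. It was -3.24 without Cre Naïve 1 and -4.12 without Cre Naïve 2. Against GFP Recurred cells it was -4.94. No detection call was used, so whether 3.90 lay above the background of the array is not known, and no fold is given. The recurrence difference without RB minus that with RB was -3.86 for Tfpi2. These 3 values share the Cre Recurred arrays that the choice of the gene rested on.

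The comparisons of Tfpi2 between populations other than Cre Recurred were fitted with intervals and p-values, and neither passed. Their spread was estimated over all 8 arrays, so it also drew on the Cre Recurred pair that chose the gene. That pair had an SD of 0.00057, against 0.28 to 0.62 in the other populations, which lowers the estimated spread. The intervals and p-values below are thus not free of the choice. GFP Recurred and GFP Naïve arrays overlapped, with a log2 difference of 0.18 (95% interval -0.67 to 1.02) and a limma adjusted p = 0.957. Cre Naïve arrays were below GFP Naïve arrays with no overlap, at a log2 difference of -1.08 (95% interval -1.93 to -0.24) and a limma adjusted p = 0.997. The neighbours in the order of levels, GFP Recurred, GFP Naïve and Cre Naïve, thus did not differ past the thresholds.

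**Figure D1:**
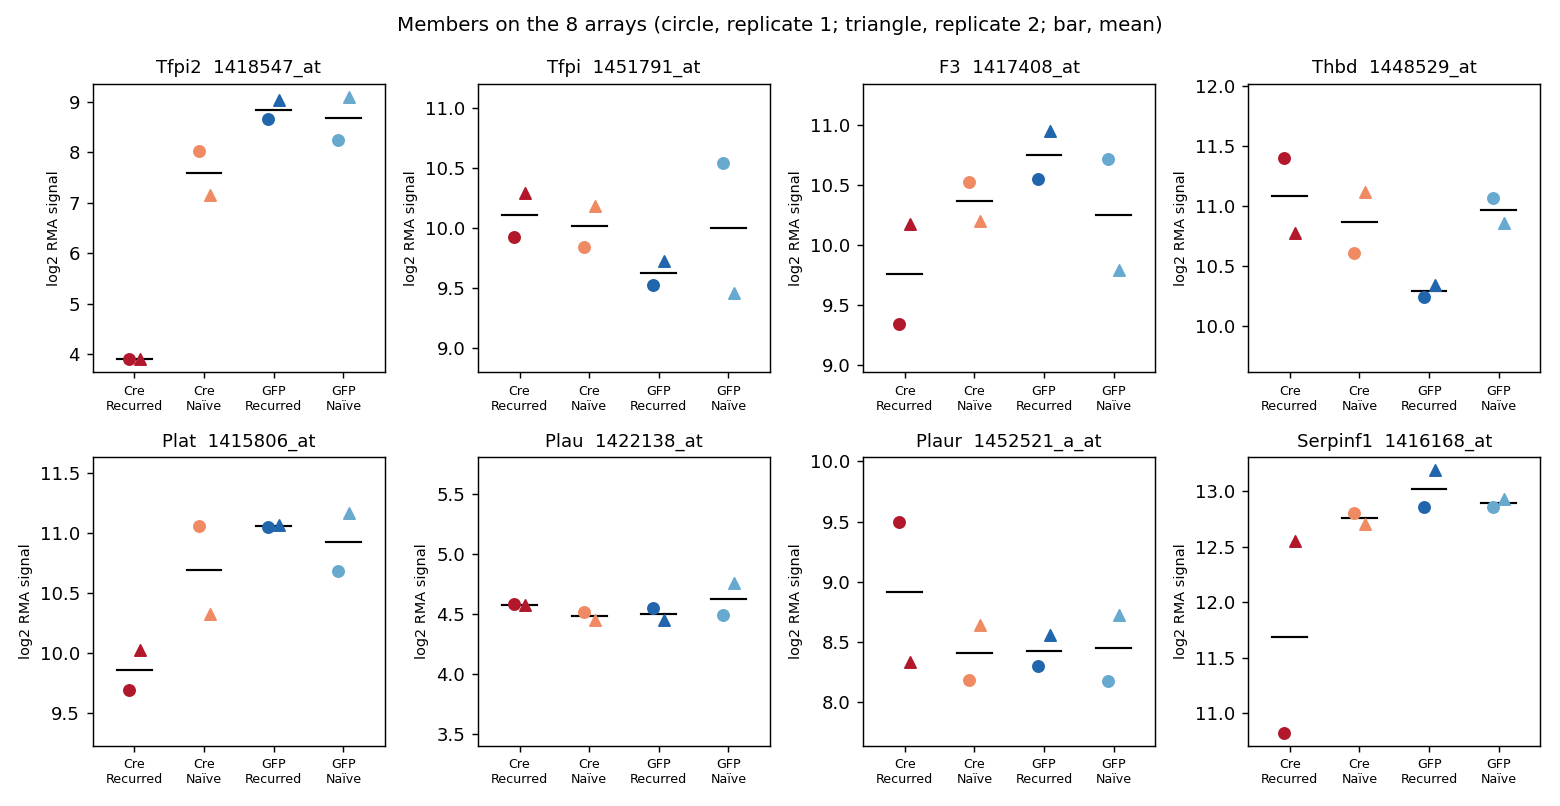
Log2 RMA signal (vertical axes, each panel with its own range) of the brightest probe set of each of the 8 measured genes in the 4 populations (horizontal axes), with a circle for replicate 1, a triangle for replicate 2 and a bar for the mean. Tfpi2 lies at 3.90 on both Cre Recurred arrays and between 7.15 and 9.10 on the other 6, while Plau stays between 4.45 and 4.76.

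Among the genes that start and restrain clotting, F3 was lower and Thbd higher in Cre Recurred than in GFP Recurred cells past the thresholds, and Tfpi passed nowhere. F3, the tissue factor that opens the clotting cascade, read 9.34 and 10.18 in Cre Recurred cells, 10.53 and 10.20 in Cre Naïve cells, 10.55 and 10.95 in GFP Recurred cells and 10.71 and 9.79 in GFP Naïve cells (1417408_at). Both Cre Recurred arrays lay below the Cre Naïve and the GFP Recurred arrays, by a narrow margin on Cre Recurred 2. The log2 difference of F3 against GFP Recurred cells was -0.99 (SE 0.37, 1.98-fold lower, limma adjusted p = 0.247), close to the threshold. Without any 1 of the Cre Naïve, GFP Recurred or Cre Recurred 1 arrays it did not pass, at values from -1.19 to -0.57. Against Cre Naïve cells it was -0.60 (adjusted p = 0.54), and between GFP Recurred and GFP Naïve cells 0.49 (adjusted p = 0.89).

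Thbd, the thrombin receptor that directs thrombin to protein C, read 11.40 and 10.77 in Cre Recurred cells, 10.61 and 11.12 in Cre Naïve cells, 10.24 and 10.34 in GFP Recurred cells and 11.07 and 10.86 in GFP Naïve cells (1448529_at). The GFP Recurred pair was the lowest of the 4, and the other 3 populations overlapped one another. The log2 difference of Thbd between Cre Recurred and GFP Recurred cells was 0.79 (SE 0.25, 1.73-fold higher, limma adjusted p = 0.173). It did not pass without GFP Recurred 1, GFP Recurred 2 or Cre Recurred 1, where it stood at 0.74, 0.84 and 0.48 in turn. Against Cre Naïve cells it was 0.22 (adjusted p = 0.736). GFP Recurred arrays were below GFP Naïve arrays with no overlap, at a log2 difference of -0.67 and a limma adjusted p = 0.871.

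Tfpi, the inhibitor of the tissue factor complex, was measured by 4 probe sets. The brightest, 1451791_at, read 9.92 and 10.29 in Cre Recurred cells, 9.84 and 10.18 in Cre Naïve cells, 9.52 and 9.72 in GFP Recurred cells and 10.54 and 9.46 in GFP Naïve cells. Its GFP Naïve arrays were the highest and the lowest of the 8. Probe set 1438530_at read 8.73 and 8.55 in Cre Recurred cells, 8.88 and 8.26 in Cre Naïve cells, 8.45 and 8.37 in GFP Recurred cells and 9.85 and 8.96 in GFP Naïve cells, with both GFP Naïve arrays above the rest. Between GFP Recurred and GFP Naïve cells the probe sets gave log2 differences of -0.38 (1451791_at), -0.35 (1451790_a_at), -0.99 (1438530_at) and -1.08 (1452432_at), with limma adjusted p from 0.871 to 0.9. In Cre Naïve cells 1438530_at and 1452432_at also lay below GFP Naïve cells with no overlap, at log2 differences of -0.83 and -0.78 (adjusted p = 0.997 each). Between Cre Recurred and GFP Recurred cells the 4 Tfpi differences ran from 0.23 to 0.48, and between Cre Recurred and Cre Naïve cells from -0.04 to 0.28, none past the thresholds.

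Of the plasminogen activators, Plat was lower in Cre Recurred cells and Plau passed nowhere. Plat, which makes plasmin on fibrin, read 9.69 and 10.02 in Cre Recurred cells, 11.06 and 10.32 in Cre Naïve cells, 11.05 and 11.07 in GFP Recurred cells and 10.68 and 11.16 in GFP Naïve cells (1415806_at). Both Cre Recurred arrays lay below the other 6. The log2 difference of Plat against GFP Recurred cells was -1.20 (SE 0.27, 2.30-fold lower, limma adjusted p = 0.0953), the smallest adjusted p among the members other than Tfpi2. Without GFP Recurred 1, GFP Recurred 2 or Cre Recurred 1 it did not pass, while it stood at -1.21, -1.19 and -1.04 in turn. Against Cre Naïve cells it was -0.83 (adjusted p = 0.348), and it was not past the thresholds between GFP Recurred and GFP Naïve cells (0.14, adjusted p = 0.956) or between Cre Naïve and GFP Naïve cells (-0.23, adjusted p = 0.997). A dimmer Plat probe set, 1458553_at, ran from 4.85 to 5.38 over the 8 arrays and differed by -0.26 between Cre Recurred and GFP Recurred cells (adjusted p = 0.548).

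Plau, the urokinase, read 4.58 and 4.58 in Cre Recurred cells, 4.52 and 4.45 in Cre Naïve cells, 4.55 and 4.45 in GFP Recurred cells and 4.50 and 4.76 in GFP Naïve cells (1422138_at). Its second probe set, 1422139_at, lay between 2.91 and 3.57. None of the Plau differences passed, and between GFP Recurred and GFP Naïve cells 1422139_at differed by 0.26 (adjusted p = 0.91). The receptor Plaur read 9.50 and 8.33 in Cre Recurred cells, 8.18 and 8.64 in Cre Naïve cells, 8.30 and 8.55 in GFP Recurred cells and 8.17 and 8.72 in GFP Naïve cells (1452521_a_at). Only the array Cre Recurred 1 stood above the rest. The Plaur difference was 0.51 against Cre Naïve cells (adjusted p = 0.61) and 0.49 against GFP Recurred cells (adjusted p = 0.597), and without Cre Recurred 2 it was 1.09 (adjusted p = 0.224) and 1.07 (adjusted p = 0.161), so this array alone decided whether it passed.

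Serpinf1, which encodes the secreted serpin PEDF, known for blocking vessel growth rather than a protease, was lower in Cre Recurred than in GFP Recurred cells by both probe sets. Probe set 1416168_at read 10.82 and 12.55 in Cre Recurred cells, 12.80 and 12.71 in Cre Naïve cells, 12.86 and 13.19 in GFP Recurred cells and 12.86 and 12.93 in GFP Naïve cells. Probe set 1453724_a_at read 9.77 and 11.31 in Cre Recurred cells, 11.63 and 11.30 in Cre Naïve cells, 11.68 and 12.01 in GFP Recurred cells and 11.56 and 12.07 in GFP Naïve cells. In both, most of the drop was on the array Cre Recurred 1, and Cre Recurred 2 was close to the Cre Naïve arrays. The log2 differences against GFP Recurred cells were -1.34 (SE 0.48, 2.53-fold lower, limma adjusted p = 0.223) and -1.30 (2.47-fold lower, adjusted p = 0.216). Without Cre Recurred 1 they were -0.47 and -0.53 and no longer passed, nor did they without either GFP Recurred array (adjusted p from 0.466 to 0.635), and 1416168_at also missed without any 1 of the naïve arrays (adjusted p = 0.256 or 0.262). Against Cre Naïve cells they were -1.07 (adjusted p = 0.437) and -0.92 (adjusted p = 0.469). The array Cre Recurred 1 also had the lowest median of the fibroblast markers, 10.69, whose part in this difference was not tested.

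**Figure D2:**
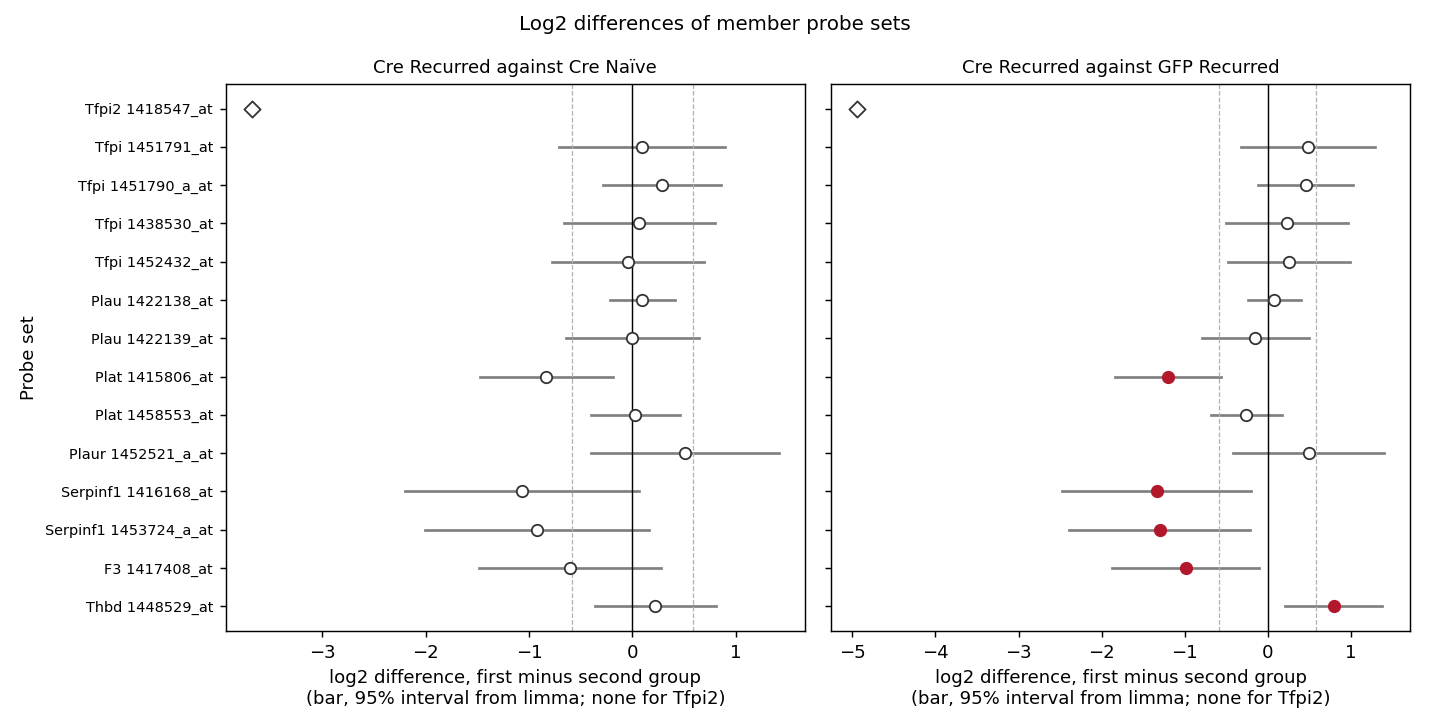
Log2 difference of each of the 14 probe sets (rows) between Cre Recurred and Cre Naïve cells (left) and between Cre Recurred and GFP Recurred cells (right), with 95% intervals from limma as bars on the rows other than Tfpi2 and dashed lines at 1.5-fold. Filled points passed the thresholds, and Tfpi2, an open diamond, is a description at -3.68 and -4.94. On the right Plat, Serpinf1 by both probe sets and F3 lie below 0 and Thbd above it.

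Counted over the 13 probe sets other than Tfpi2, 5 passed between Cre Recurred and GFP Recurred cells by limma, beside 8.85% of all probe sets. Of these 4 were lower and 1 higher, beside 4.78% and 4.08% of all probe sets, and they belonged to 4 of the 7 genes. None passed at the stricter adjusted p under 0.05, as 0.722% of all probe sets did, and 5 had an unadjusted p under 0.05, beside 16.8%. By a statistic of the type of SAM 3 passed, beside 4779 of all 45037 probe sets. The arrays did not overlap for 10 of the 13, beside 51.8% of all probe sets. This contrast holds the arrays that chose Tfpi2, and nothing is read from these shares. Without GFP Recurred 1, GFP Recurred 2 or Cre Recurred 1 none of the 13 passed, and without Cre Recurred 2 there were 6.

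Between Cre Recurred and Cre Naïve cells 0 of the 13 passed by limma, beside 1.16% of all probe sets. An unadjusted p under 0.05 was found for 1 of them, Plat, beside 12% of all probe sets. None passed by the SAM-type statistic, beside 163 of all 45037 probe sets. Arrays did not overlap for 5 of the 13, beside 43.5% of all probe sets. Without Cre Naïve 2, Plat passed, and without Cre Recurred 2, Plaur and both Serpinf1 probe sets passed. The comparisons with Cre Naïve and with GFP Recurred cells share the Cre Recurred arrays.

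Neither comparison between populations other than Cre Recurred moved a member past the thresholds. For Tfpi2 the estimated spread again drew on the Cre Recurred arrays. Between GFP Recurred and GFP Naïve cells 0 of 14 probe sets passed by limma, beside 0.0133% of all probe sets, with 3 at an unadjusted p under 0.05 (Thbd and 2 of Tfpi), beside 5.52%. By the SAM-type statistic 0 of the 14 passed, beside 331 of all 45037 probe sets. For 4 of the 14 the arrays did not overlap, beside 38.4% of all probe sets. Between Cre Naïve and GFP Naïve cells 0 of 14 passed by limma, beside 0% of all probe sets, with 3 at an unadjusted p under 0.05 (Tfpi2 and 2 of Tfpi), beside 2.57%. By the SAM-type statistic 0 of the 14 passed, beside 0 of all 45037 probe sets. The arrays did not overlap for 4 of these 14, beside 27.3% of all probe sets.

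The test of whether the recurrence difference depended on RB, the difference of the differences, passed for 0 of the 13 probe sets other than Tfpi2 by limma, beside 0.4% of all probe sets. An unadjusted p under 0.05 was found for 4 of them, Thbd, Plat and 2 of Tfpi, beside 10.3%, without a SAM-type value for this term. The smallest adjusted p was 0.462, for Thbd, at 0.89. For Plat the value was -0.97 (adjusted p = 0.465), for F3 -1.10 (adjusted p = 0.522) and for Serpinf1 -1.20 (1416168_at, adjusted p = 0.574). The value had the other sign for Tfpi, at 1.06 (1438530_at, adjusted p = 0.479) and 1.04 (1452432_at, adjusted p = 0.483). Without Cre Naïve 2 the value of Plat passed, and without Cre Recurred 2 those of Thbd and both Serpinf1 probe sets did.

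Further genes of plasmin and clotting control were taken from lists. Each gene was represented by its brightest probe set, and 87 genes of 4 lists were measured. Of the 18 measured genes of the plasminogen system 1 was higher and 1 lower in Cre Recurred than in GFP Recurred cells past the thresholds. Of 24 genes of the clotting cascade and its receptors 0 were higher and 2 lower, and of 39 other serpins 2 were higher and 3 lower. Over the 87 genes 8 passed by limma, beside 8.85% of all probe sets, and 12 had an unadjusted p under 0.05, beside 16.8%. By the SAM-type statistic 10 passed, with Procr and Serpini1 added, beside 4779 of all 45037 probe sets. None of 12 Kunitz inhibitors passed by limma, at an unadjusted p under 0.05 or by the SAM-type statistic. The lists' median log2 differences were 0.04 for the plasminogen system, 0.01 for clotting, 0.16 for Kunitz inhibitors and 0.03 for other serpins, beside 0.05 for all probe sets.

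Serpinb2, the intracellular and secreted inhibitor of urokinase and a member of 2 of the lists, had the largest difference of the 87 list genes between Cre Recurred and GFP Recurred cells. It read 10.14 and 9.62 in Cre Recurred cells, 8.73 and 10.26 in Cre Naïve cells, 5.29 and 6.55 in GFP Recurred cells and 9.55 and 7.59 in GFP Naïve cells (1419082_at). The GFP Recurred arrays were the lowest, and the Cre Recurred and Cre Naïve arrays overlapped. The log2 difference of Serpinb2 between Cre Recurred and GFP Recurred cells was 3.96 (SE 0.76, 15.5-fold higher, limma adjusted p = 0.0719). Between GFP Recurred and GFP Naïve cells it was -2.65, which did not pass (adjusted p = 0.871). The call against GFP Recurred cells was lost without GFP Recurred 1, GFP Recurred 2 or Cre Recurred 1, at differences of 3.33, 4.59 and 3.70 in turn.

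Hgf, hepatocyte growth factor, a relative of plasminogen without protease activity, was lower in Cre Recurred than in GFP Recurred cells by 3 probe sets. By the brightest, 1442884_at, it read 5.86 and 7.18 in Cre Recurred cells, 7.34 and 7.39 in Cre Naïve cells, 8.15 and 8.18 in GFP Recurred cells and 7.30 and 6.44 in GFP Naïve cells. The GFP Recurred arrays were above the other 6. The Hgf differences between Cre Recurred and GFP Recurred cells were -1.65 (adjusted p = 0.125), -1.19 (1425379_at, adjusted p = 0.0692) and -1.56 (1451866_a_at, adjusted p = 0.0442). Without GFP Recurred 2 none of the 3 passed (adjusted p from 0.346 to 0.474), and without GFP Recurred 1 or Cre Recurred 1 only 1451866_a_at did.

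Gas6, a ligand of receptor tyrosine kinases related to protein S, read 6.16 and 6.11 in Cre Recurred cells, 10.13 and 8.34 in Cre Naïve cells, 10.09 and 9.41 in GFP Recurred cells and 10.85 and 9.83 in GFP Naïve cells (1417399_at). Both Cre Recurred arrays were below all others. The Gas6 difference was -3.61 against GFP Recurred cells (12.2-fold lower, limma adjusted p = 0.0524) and -3.10 against Cre Naïve cells (8.58-fold lower, adjusted p = 0.19). Pros1, which encodes protein S, the cofactor of Tfpi and of activated protein C, differed by -1.24 against GFP Recurred cells (adjusted p = 0.185). Protein C's receptor Procr did not pass there in the fit over all arrays (0.81, limma adjusted p = 0.27). It passed by the SAM-type statistic (adjusted value 0.192), with the compared arrays alone (adjusted p = 0.24), without dim probe sets (adjusted p = 0.207) and without Cre Recurred 2 (1.27, adjusted p = 0.102). The thrombin receptor F2r (-0.45, adjusted p = 0.16, under 1.5-fold) did not pass there. Neither did F7 (-0.12, adjusted p = 0.704, signals 4.14 to 4.40) or F10 (0.11, adjusted p = 0.836, signals 3.83 to 4.37), not known to lie above background. Gas6 and Pros1 no longer passed there without GFP Recurred 1, GFP Recurred 2 or Cre Recurred 1 (adjusted p from 0.272 to 0.615). Against Cre Naïve cells Gas6 was lost without Cre Naïve 1 (adjusted p = 0.349), either GFP Recurred array (adjusted p = 0.388) or Cre Recurred 1 (adjusted p = 0.791).

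Serping1, the inhibitor of complement C1 and of kallikrein, read 7.90 and 9.28 in Cre Recurred cells, 12.19 and 10.22 in Cre Naïve cells, 11.76 and 12.07 in GFP Recurred cells and 11.65 and 11.45 in GFP Naïve cells (1416625_at). Both Cre Recurred arrays were below the rest. Its difference was -3.33 against GFP Recurred cells (SE 0.66, limma adjusted p = 0.0745) and -2.61 against Cre Naïve cells (adjusted p = 0.287, not passed). Serpinb1b, of the clade of intracellular serpins, read 4.24 and 4.64 in Cre Recurred cells, 6.14 and 5.97 in Cre Naïve cells, 6.28 and 6.54 in GFP Recurred cells and 6.64 and 5.89 in GFP Naïve cells (1426318_at). The Serpinb1b difference passed against GFP Recurred cells (-1.96, adjusted p = 0.0409) and against Cre Naïve cells (-1.61, adjusted p = 0.139). Serpinb6b ran from 4.59 to 6.32 over the 8 arrays (1422804_at). Serpinb7 read 3.96 and 5.02 in Cre Recurred cells and 2.70 and 2.72 in GFP Recurred cells (1449500_at). Whether these low Serpinb7 signals lay above background is not known. Against GFP Recurred cells the difference was -1.03 for Serpinb6b (adjusted p = 0.188) and 1.78 for Serpinb7 (adjusted p = 0.0707). Serpinb9 passed by 1439790_at (-0.98, adjusted p = 0.0879) and not by its brightest probe set (-0.54, adjusted p = 0.312). Against GFP Recurred cells each of these 5 serpins was lost without GFP Recurred 2 (adjusted p from 0.337 to 0.494), all but Serpinb1b without GFP Recurred 1, Serping1, Serpinb6b and Serpinb9 without Cre Recurred 1, and Serpinb6b also without Cre Recurred 2 (adjusted p = 0.253). Against Cre Naïve cells Serpinb1b was lost without Cre Naïve 1, either GFP Recurred array or Cre Recurred 1 (adjusted p from 0.324 to 0.718), and Serping1 passed without Cre Naïve 2 (adjusted p = 0.0564) or Cre Recurred 2 (adjusted p = 0.179).

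The genes that hold or present plasminogen differed little and did not pass. Between Cre Recurred and GFP Recurred cells the log2 differences were -0.06 for Anxa2 (adjusted p = 0.905) and 0.03 for S100a10 (adjusted p = 0.97), partners that form a plasminogen receptor at the cell surface. They were 0.13 for the plasminogen receptor Plgrkt (adjusted p = 0.711), -0.32 for Lrp1, which clears activators bound to their inhibitors (adjusted p = 0.633), and 0.04 for plasminogen itself, Plg (adjusted p = 0.922). Plg read only 3.47 to 3.95 over the 8 arrays, and whether that lay above background is not known. The Kunitz inhibitor Spint2 differed by 0.04 (adjusted p = 0.913) and the collagen chaperone Serpinh1 by -0.17 (adjusted p = 0.707).

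Of the 87 list genes, 2 passed between Cre Recurred and Cre Naïve cells by limma, Gas6 and Serpinb1b, beside 1.16% of all probe sets. An unadjusted p under 0.05 was found for 14, beside 12%. By the SAM-type statistic 1 passed, Serpinb1b, beside 163 of all 45037 probe sets. Between GFP Recurred and GFP Naïve cells 0 of the 87 passed by limma, beside 0.0133%, and 5 had an unadjusted p under 0.05, beside 5.52%. By the SAM-type statistic 0 passed, beside 331 of all 45037 probe sets. These counts rest on the brightest probe sets. Of the dimmer ones, Hgf passed there by the SAM-type statistic with 1451866_a_at (1.31, adjusted value 0.0549) and 1425379_at (0.91, adjusted value 0.234). Between Cre Naïve and GFP Naïve cells 0 passed by limma, beside 0%, and 3 had an unadjusted p under 0.05, beside 2.57%. By the SAM-type statistic 0 passed, beside 0 of all 45037 probe sets.

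**Figure D3:**
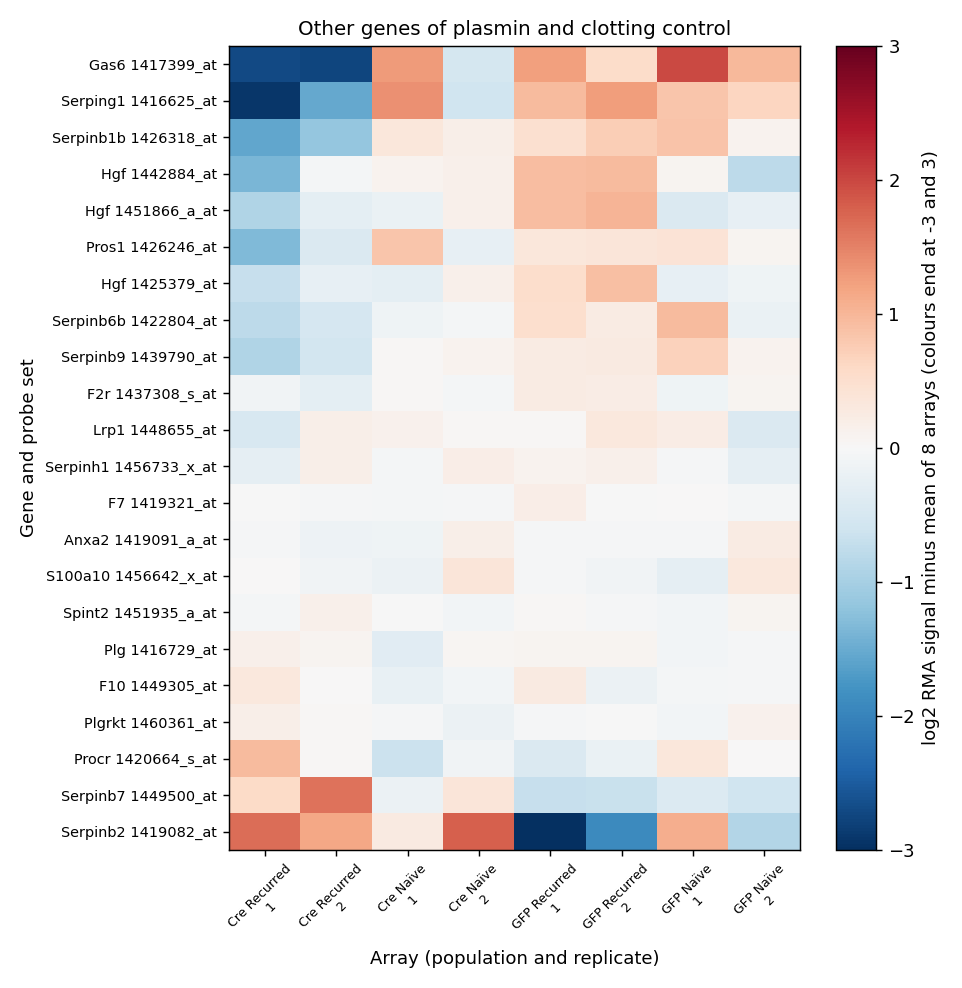
Log2 RMA signal minus the mean of the 8 arrays (colour scale, ending at -3 and 3) for the named genes of the lists other than the members (rows) on the 8 arrays (columns, population and replicate). Gas6 and Serpinb1b are lowest on both Cre Recurred arrays, and Serpinb2 is lowest on both GFP Recurred arrays.

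The genes whose pattern over the 8 arrays was most like that of Tfpi2 were taken by Pearson's r among 1254 probe sets with a range of at least 2 log2 units, as a description. They were Gfpt2, an enzyme of hexosamine synthesis (r = 0.9926), Mtm1, a lipid phosphatase (r = 0.9882), Marchf3, a membrane-bound ubiquitin ligase (r = 0.9866), AW551984 (r = 0.9863) and Rpl39l, a copy of a ribosomal protein gene (r = 0.9862). The 8 arrays share the 2 low Cre Recurred arrays, which set most of each r, and over the 6 other arrays the values were 0.928, 0.912, 0.947, 0.828 and 0.839 in the same order. Gfpt2 read 6.44 and 6.71 in Cre Recurred cells, 9.32 and 8.48 in Cre Naïve cells, 9.30 and 9.58 in GFP Recurred cells and 9.23 and 9.50 in GFP Naïve cells. Rpl39l read 3.73 and 3.89 in Cre Recurred cells, 10.98 and 8.94 in Cre Naïve cells, 11.49 and 11.63 in GFP Recurred cells and 9.44 and 11.40 in GFP Naïve cells. As with Tfpi2, Cre Naïve 2 was the lowest array outside the Cre Recurred pair in each of these genes. The genes were chosen by r over all 8 arrays, which include the 6 outside Cre Recurred. Their r over those 6 and their low Cre Naïve 2 signal are thus not free of the choice. Neither is a separate check of the similarity.

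Among the members, Plat (1415806_at) had the highest r with Tfpi2 over the 8 arrays, 0.943, and gave 0.864 over the 6 outside Cre Recurred. Serpinf1 gave 0.81 (1453724_a_at) and 0.767 (1416168_at) over 8 arrays and F3 gave 0.608. Over the 6 the order was another, with 0.948 for Serpinf1 by 1453724_a_at, 0.912 for Plat by 1458553_at, 0.795 for Serpinf1 by 1416168_at and 0.0874 for F3. Over 8 arrays r was negative for Thbd (-0.556), Plaur (-0.479) and Tfpi by 1451790_a_at (-0.509) and 1451791_at (-0.433). Tfpi by 1438530_at and 1452432_at gave 0.167 and 0.206, and Plau gave -0.0304 and -0.0365. Over the 6 arrays r was -0.575 for Thbd, -0.629 for Tfpi by 1451791_at and 0.141 for Plaur.

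**Figure D4:**
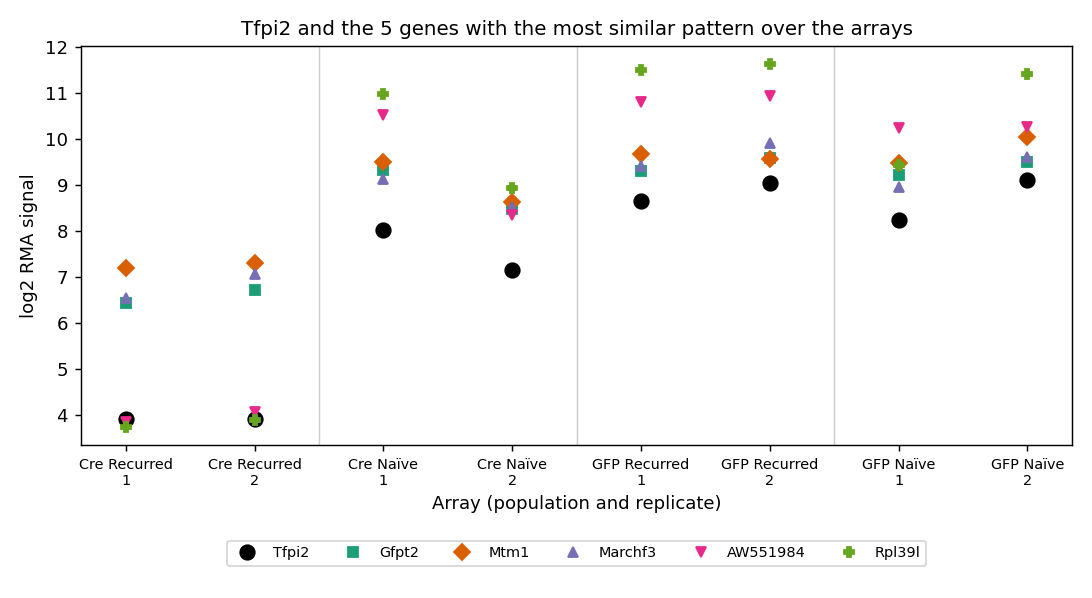
Log2 RMA signal (vertical axis) of Tfpi2 and the 5 genes with the most similar pattern on the 8 arrays (horizontal axis, population and replicate), with 1 symbol per gene. All 6 are lowest on the Cre Recurred arrays, where Tfpi2 reads 3.90, and Cre Naïve 2 is the next lowest for Tfpi2 at 7.15.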

How the data were processed

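RNA from 4 populations of mouse adult fibroblasts was measured on 8 Affymetrix GeneChips covering the mouse genome, 2 per population. Values deposited by the authors are log2 signals computed by the Robust Multichip Average (RMA), which corrects background, sets all arrays to 1 distribution and summarises the probes of a probe set, so a shift shared by most genes would not be seen. The version of the RMA software is not given in the sources used here. All 45101 probe sets but 64 controls were tested. Gene symbols came from the platform annotation, by which 34945 probe sets had 1 symbol, 932 several (not named) and 9160 none.

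The linear model (limma 3.58.1, R 4.3.3) had 4 population means, 4 residual and 3.07 prior degrees of freedom, and Benjamini-Hochberg adjustment over 45037 probe sets. The number of arrays limits the precision. The study used SAM, so a SAM-type statistic written in R was an alternative, beside a trended and robust prior, a fit of the compared arrays alone, cyclic loess, median centring, a replicate block, filters on dim probe sets and on probe sets with shared probes, and leaving out each array. The fits were also run on data simulated with independent normal noise, which lack similarities between arrays, and no outcome of that run is relied on here.

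Members and lists were chosen with earlier results of these data known. Named were all probe sets of the members, list genes that passed in any comparison, a set of list genes always named, the 5 genes with the highest Pearson r with Tfpi2, and Rb1. A gene with several probe sets was represented in list counts by the one with the highest mean. The 64.4% and similar shares of promoter windows were counted over all windows of the RefSeq table with GRCm38.p6 coordinates. Plots used matplotlib 3.10.9 under Python 3.11.15.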

Additional observations from a re-analysis of the deposited data

Results flagged for a closer look

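Among the 143 probe sets of the members other than Tfpi2 and of the 4 lists, 1 passed for the difference of the differences. This stands beside 0.4% of all probe sets, and nothing is read from the count. The probe set was 1451866_a_at of Hgf. It read 5.84 and 6.44 in Cre Recurred cells and 6.53 and 6.88 in Cre Naïve cells, against 7.65 and 7.75 in GFP Recurred cells and 6.29 and 6.48 in GFP Naïve cells. The log2 difference between recurred and naïve cells was -0.57 without RB and 1.31 with RB. The latter passed by the SAM-type statistic (adjusted value 0.0549) and not by limma. The difference of these differences was -1.88 (limma adjusted p = 0.222). It no longer passed without GFP Naïve 1, Cre Naïve 1, GFP Recurred 1, GFP Recurred 2 or Cre Recurred 1, with adjusted p from 0.255 to 0.848. The other Hgf probe sets gave -1.30 (1425379_at, adjusted p = 0.324) and -2.14 (1442884_at, adjusted p = 0.366).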

How the results depend on the processing

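Between Cre Recurred and GFP Recurred cells, the count of member probe sets past the thresholds, 5 of 13, was 3 by the SAM-type statistic, 2 with a trended and robust prior, 4 with the compared arrays alone or without probe sets with shared probes, and 5 with cyclic loess, median centring or without dim probe sets. Leaving out 1 array gave 0 to 6, with 3 without Cre Naïve 1 or Cre Naïve 2. F3 was lost with the trended prior (adjusted p = 0.253), and Serpinf1 by the SAM-type statistic (0.315 for both probe sets) and the trended prior (0.287 and 0.267). Between Cre Recurred and Cre Naïve cells the count of 0 became 0 to 3 with 1 array left out, and for the difference of the differences also 0 to 3. The counts of 0 of 14 in GFP Recurred against GFP Naïve and in Cre Naïve against GFP Naïve cells were 0 under every alternative run. With 1 array left out, its lone partner is assumed to vary like the other populations. In such fits a call could be lost while the difference hardly moved. For Plat against GFP Recurred cells it was -1.20 with all arrays and -1.21 without GFP Recurred 1.

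Between populations, same-numbered deviations from the population means correlated at -0.255 to 0.307. With so few arrays in each population, these values of mixed sign cannot decide whether the replicate numbers paired the samples. With the replicate block 4 of 13 passed between Cre Recurred and GFP Recurred cells, where F3 was lost (adjusted p = 0.289), and 0 in each other comparison.

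Over the named genes, 1471 values outside the leave-one-out fits kept their side of the thresholds, 10 passed newly and 17 no longer passed, and no direction of a called value turned. In the fits with 1 array left out, 1510 kept their side, 36 passed newly, 92 no longer passed, and 2 moved, the Tfpi2 difference against Cre Naïve cells (-3.24 without Cre Naïve 1 and -4.12 without Cre Naïve 2). No SAM-type value was computed for the difference of the differences.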
